A study of Mus musculus with 3 samples.

Results

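Accessible chromatin of dopaminergic neurons (DNs) was examined at 10 genes that mark the oligodendrocyte lineage, a glial lineage that DNs do not belong to. The genes were 3 transcription factors of the lineage (*Olig1*, *Olig2* and *Sox10*), 2 genes used to recognise oligodendrocyte precursors (*Pdgfra* and *Cspg4*) and 5 genes of myelin (*Mbp*, *Mog*, *Mag*, *Mobp* and *Cnp*), out of 21755 protein-coding genes of GENCODE M21 on the 19 autosomes and the X chromosome. They are well-known lineage markers, picked by name with earlier results of these data known, and their peak counts were not part of the rule. A gene was credited with every DN peak in its body or within 20 kb on either side. No windows of the 10 genes overlapped, and together they held 33 of the 55326 peaks. The DN nuclei came from single-nucleus ATAC-seq (snATAC-seq) of the midbrain ventral tegmental area (VTA) of male C57Bl/6Nl wild-type mice, untreated as far as the labels say, with ages of 7 weeks (replicate 1) and 9 weeks (replicate 2). The authors picked DNs as a cluster of nuclei, by scores of genes such as *Th*, the enzyme that starts dopamine synthesis, after removing doublets with ArchR at its default settings. How many mixed droplets remained was not measured here, and their part in peaks at glial genes was not tested. The deposited list pools both libraries and gives the position of each 500-bp peak, with no height, score or count. No value below has a spread between replicates and no test was made, so each gene is set beside genes of its own length. The depth behind each call is unknown from the list, and a gene without a peak is one where no peak was called, which leaves weak accessibility undecided.

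Oligodendrocytes (OLGs) wrap axons of the central nervous system in myelin. *Olig2* and *Olig1* encode basic helix-loop-helix factors that specify and mature the lineage, and *Sox10* encodes a high-mobility-group factor that drives myelin genes. Precursors carry the platelet-derived growth factor receptor encoded by *Pdgfra* and the NG2 proteoglycan encoded by *Cspg4*, and maturing cells switch to proteins of compact myelin and of its inner and outer faces. In ATAC-seq a transposase cuts open DNA, so peaks gather at active or poised promoters, enhancers and sites bound by CTCF, the zinc-finger protein that anchors chromatin loops in most cell types.

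An exact CTCF consensus was in 6 of the 33 peaks, against 5.25% of all DN peaks. With up to 1 mismatch it was in 15, against 17.9% of all DN peaks. The search was added after the sequences had been read, and these shares were not tested. A start of the member itself was near 3 of the 33 peaks, and sequences of peaks and of promoters are shown. The following 200-base stretches lie in member peaks, outside annotated exons of all genes, in mm10 coordinates and 5′ to 3′ on the strand of the gene. Capitals mark an exact match to the CTCF consensus on either strand, and stretches without capitals hold none within 1 mismatch. The first lies near a start of *Pdgfra* (chr5:75156350-75156549, plus strand), the second and the third inside introns of *Cspg4* (chr9:56891522-56891721, plus strand) and *Mag* (chr7:30904151-30904350, minus strand), and the fourth and the fifth before and beyond *Mobp* (chr9:120140744-120140943 and chr9:120191431-120191630, plus strand). The last 2 are given for contrast, from the peak before *Mog* (chr17:37028667-37028866, minus strand) and the peak at the start of *Cnp* (chr11:100575242-100575441, plus strand).
*Pdgfra* peak 1: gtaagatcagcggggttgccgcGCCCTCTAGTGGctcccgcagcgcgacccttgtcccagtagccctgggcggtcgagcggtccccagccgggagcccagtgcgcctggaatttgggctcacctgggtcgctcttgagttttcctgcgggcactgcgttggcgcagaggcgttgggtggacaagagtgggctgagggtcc
*Cspg4* peak 3: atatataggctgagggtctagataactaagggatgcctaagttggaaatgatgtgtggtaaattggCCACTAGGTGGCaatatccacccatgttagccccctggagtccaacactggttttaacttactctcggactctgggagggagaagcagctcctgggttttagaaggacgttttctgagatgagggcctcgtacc
*Mag* peak 1: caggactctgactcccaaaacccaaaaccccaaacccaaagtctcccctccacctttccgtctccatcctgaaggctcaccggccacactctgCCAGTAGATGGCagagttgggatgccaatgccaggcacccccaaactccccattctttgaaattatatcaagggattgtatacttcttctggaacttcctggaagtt
*Mobp* peak 3: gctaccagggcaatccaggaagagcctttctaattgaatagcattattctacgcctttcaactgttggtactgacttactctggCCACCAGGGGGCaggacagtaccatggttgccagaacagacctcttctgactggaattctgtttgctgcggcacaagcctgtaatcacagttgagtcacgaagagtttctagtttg
*Mobp* peak 5: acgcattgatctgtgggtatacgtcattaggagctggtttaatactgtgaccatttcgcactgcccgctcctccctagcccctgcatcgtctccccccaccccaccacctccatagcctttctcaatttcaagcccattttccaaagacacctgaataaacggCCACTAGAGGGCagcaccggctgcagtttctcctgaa
*Mog* peak 3: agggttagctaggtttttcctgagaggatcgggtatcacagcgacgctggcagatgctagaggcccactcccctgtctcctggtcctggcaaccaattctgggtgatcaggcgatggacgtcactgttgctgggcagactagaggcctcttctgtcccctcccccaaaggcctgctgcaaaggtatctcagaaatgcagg
*Cnp* peak 3: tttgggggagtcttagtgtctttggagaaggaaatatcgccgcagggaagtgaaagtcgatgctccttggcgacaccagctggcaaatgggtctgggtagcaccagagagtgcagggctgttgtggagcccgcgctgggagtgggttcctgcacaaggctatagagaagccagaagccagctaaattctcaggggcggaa

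RefSeq promoters of GRCm38.p6, the assembly that mm10 represents, matched 7 of the 10 genes by symbol. Their exon-free upstream parts are given for 3 genes whose CpG content differed and to which the text returns, with CpG pairs in capitals. The 150 bases before *Olig2* (chr16:91225307-91225456, plus strand) held 14 CpG pairs, the 250 bases before *Mog* (chr17:37023399-37023648, minus strand) held 2, and the 210 bases before *Cnp* (chr11:100574694-100574903, plus strand) held 7.
*Olig2* promoter: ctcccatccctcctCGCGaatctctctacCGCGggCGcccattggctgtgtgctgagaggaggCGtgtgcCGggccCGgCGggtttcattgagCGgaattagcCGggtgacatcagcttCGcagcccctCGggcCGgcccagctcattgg
*Mog* promoter: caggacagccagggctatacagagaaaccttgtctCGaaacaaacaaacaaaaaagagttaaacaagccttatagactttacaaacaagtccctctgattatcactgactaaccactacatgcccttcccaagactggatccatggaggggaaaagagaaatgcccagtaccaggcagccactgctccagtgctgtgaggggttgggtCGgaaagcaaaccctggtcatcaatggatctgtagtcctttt
*Cnp* promoter: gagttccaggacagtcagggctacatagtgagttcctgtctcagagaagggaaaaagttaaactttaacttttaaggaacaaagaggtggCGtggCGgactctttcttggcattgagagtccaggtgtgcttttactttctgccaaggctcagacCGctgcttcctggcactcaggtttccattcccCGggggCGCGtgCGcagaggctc

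Of the 10 genes, 8 had at least 1 peak in the window, and *Olig1* and *Olig2* had none. Among all protein-coding genes, 76.6% had at least 1 peak in such a window, so the count over the list is close to the background. A peak inside the gene was found for 5 of 10 members, against 63.8% of all protein-coding genes. Within 1 kb of an annotated start, 3 of 10 members had one, against 56.9%. With 10 genes from 1 pooled list, neither of these shares was tested. Peaks at starts were also more common at starts rich in CpG, as set out below. Counts ranged from 0 to 10 with a median of 3, against a median of 2 over all protein-coding genes. To allow for length, each gene was ranked among the 500 protein-coding genes nearest to it in length. The median percentile of the members was 51.7, the lowest was 17.3 for *Olig1* and the highest was 85.5 for *Mbp*. By role, the 3 transcription factors had 2 peaks in all (1.47 per 100 kb of window). The 2 precursor genes had 6 (3.73 per 100 kb) and the 5 myelin genes 25 (6.45 per 100 kb). These densities pool the peaks and the windows of each role. Over single protein-coding genes, which is another measure, the median was 3.24 per 100 kb, with quartiles of 0.74 and 7.35. Of the 25 myelin peaks, 17 lay outside the genes, and over gene bodies alone the precursor genes had more (4.95 per 100 kb) than the myelin genes (4.27 per 100 kb).

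**Figure D1:**
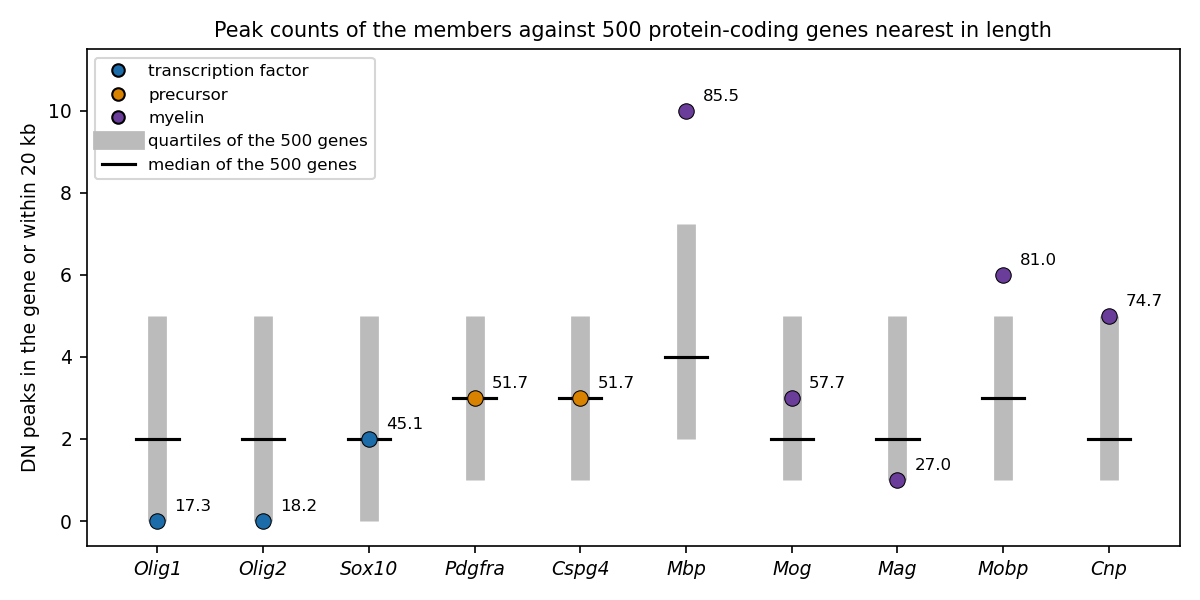
Number of DN peaks in each gene or within 20 kb of it (vertical axis), with points coloured by the role of the gene, beside the quartiles (grey bars) and median (black lines) of the 500 protein-coding genes nearest in length. Numbers are percentiles among those genes. *Olig1* and *Olig2* sit at 0, and *Mbp* with 10 peaks and *Mobp* with 6 lie above the upper quartile.

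*Olig1* (chr16:91269772-91271933) and *Olig2* (chr16:91225457-91228677) were the emptiest of the members. Both had 0 peaks, at percentiles of 17.3 and 18.2, and 34.6% and 36.4% of the genes of their length also had 0. The nearest peak centre lay 82.4 kb from the start of *Olig1* and 127 kb from the start of *Olig2*. Both genes shared a single interval without any peak, chr16:91093334-91351930, which is 259 kb long and has no other protein-coding gene in it. Among the 55306 intervals between neighbouring peaks the median was 10.7 kb, and 1619 (2.93%) were at least as long as this one, of which 577 held a protein-coding gene. Being long, these 1619 made up 40.2% of the total length of all intervals. The surroundings were not poor in peaks: 48 lay within 500 kb of *Olig1* and 44 within 500 kb of *Olig2*, where the median over all protein-coding genes was 30.

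The starts of *Olig1* and *Olig2* were rich in CpG pairs and had no peak. The CpG ratio compares observed CpG pairs with the number expected from base content, here in the 1 kb around the outermost start. Ranked by it, protein-coding genes were cut into 10 groups of like size, in which the share with a peak within 1 kb of that start rose from 2.21% in the lowest to 93.2% in the highest. *Olig2*, with a ratio of 0.76, was in the eighth group, where 88.9% had a peak, and *Olig1*, with 0.81, was in the ninth, where 92.5% had one. Of 500 genes similar in CpG ratio and in length, 84.6% for *Olig2* and 86.6% for *Olig1* had a peak at the start. Only 7.2% and 7% of them had 0 peaks in the window, and the percentiles of the pair fell to 3.6 and 3.5. *Sox10*, *Mog* and *Mag* lay in the second group, with ratios of 0.17, 0.15 and 0.16, and had no peak at the start, as was usual there (6.34% with a peak). *Pdgfra*, *Cspg4* and *Mobp* lay in the fourth (27.4%) and had none at the outermost start. *Mbp* and *Cnp* lay in the sixth (77.4%) and both had one. Of the 10 genes, *Olig1* and *Olig2* were thus the 2 whose starts went against most genes of their group. Of the genes of other lists in the 3 groups richest in CpG, 3 of 6 other lineage genes (*Tcf7l2*, *Nkx6-2* and *Fa2h*) and 1 of 2 astrocyte genes (*Sox9*) had no peak at the outermost start, named here after their values were seen, against 0 of 5 DN genes and 0 of 3 neuronal genes.

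**Figure D2:**
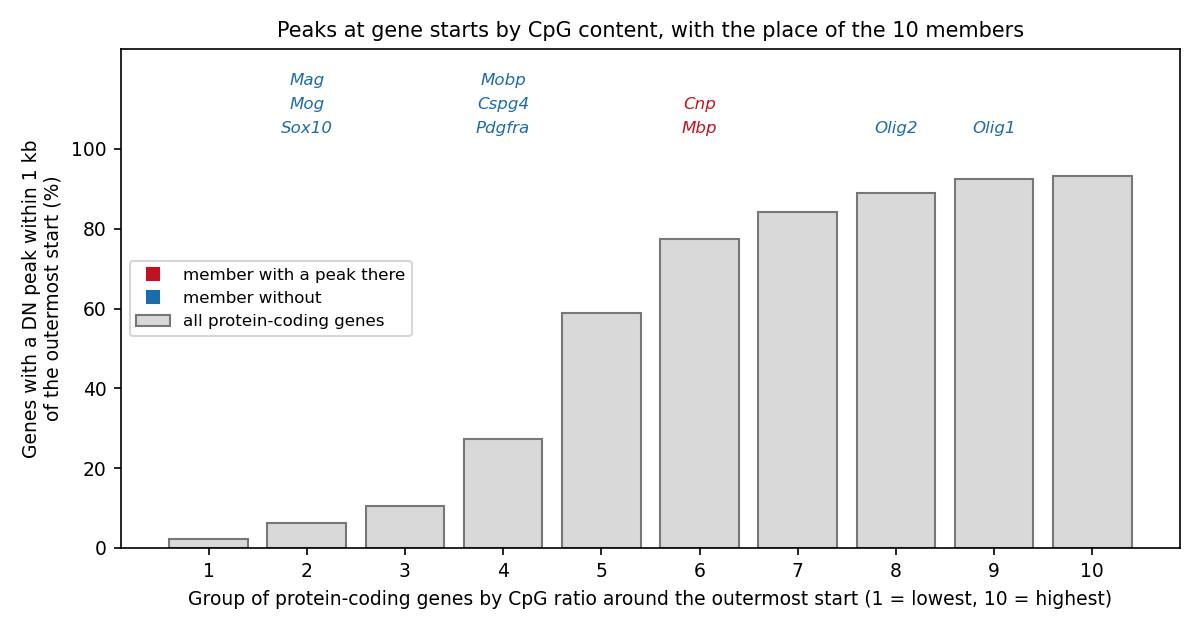
Share of protein-coding genes with a DN peak within 1 kb of the outermost start (bars, percent) in 10 groups of the genes by CpG ratio, from lowest to highest. Members are written above their group, in red with a peak at that start (*Mbp*, *Cnp*) and in blue without, and *Olig2* and *Olig1* are written in blue over bars of 88.9% and 92.5%.

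*Sox10* (chr15:79154908-79165240), the remaining transcription factor, had 2 peaks, at percentile 45.1, and neither lay in the gene. Both were beyond its 3′ end: one, 24.0 kb from the outermost start, covered the starts of *Polr2f*, a subunit of RNA polymerases, and of *1700088E04Rik*, and the other, 16.5 kb from it, lay inside *Polr2f*. Neither of the 2 annotated starts of *Sox10* had a peak within 1 kb, and the window before the gene was empty. With the peak at the neighbouring starts left out, 1 peak remained.

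**Figure D3:**
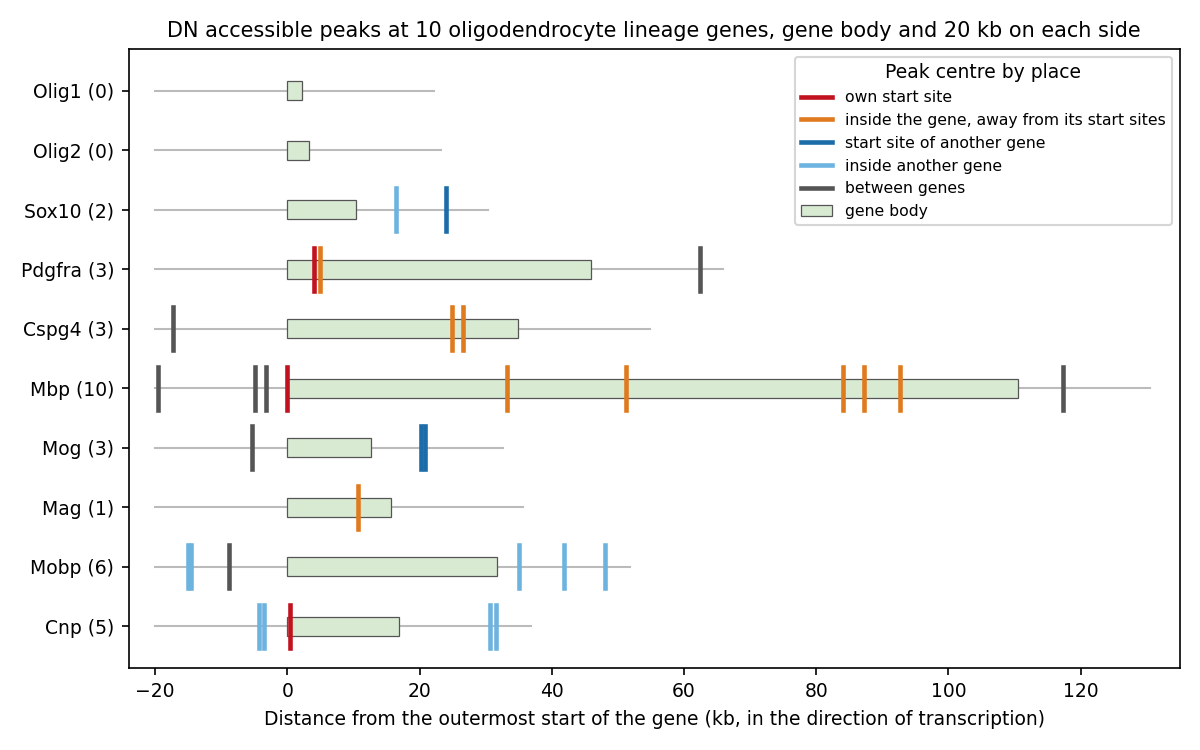
Position of the 33 DN peaks (vertical marks) in the windows of the 10 genes, in kb from the outermost start in the direction of transcription, with boxes for gene bodies and grey lines for the flanks. Marks are drawn at peak centres. Colours give the place of the whole peak (within 1 kb of a start, overlapping a gene, or between genes), and numbers in brackets the peaks per gene. Marks at a start of the gene itself are seen for *Pdgfra*, *Mbp* and *Cnp* alone, and no mark falls in the bodies of *Sox10*, *Mog* and *Mobp*.

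The precursor genes sat at the middle of genes of their length. *Pdgfra* (chr5:75152292-75198215) had 3 peaks, at percentile 51.7. Of its 4 annotated starts, 3 had no peak within 1 kb, and the other was the start farthest downstream, 438 bp from a peak centre. The second peak lay in an intron 4.95 kb from the outermost start, and the third between genes, 16.5 kb past the 3′ end. The neighbourhood was sparse, with 12 peaks within 500 kb, the lowest number among the members. *Cspg4* (chr9:56865033-56899870) also had 3 peaks and the same percentile. Of these, 2 lay in introns 24.9 and 26.6 kb from its single start and 1 lay 17.3 kb before it, so that no peak was close to the start. The peaks of this pair of genes thus differed in place and not in number.

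*Mbp* (chr18:82475146-82585637), which encodes myelin basic protein, had the largest count, 10 peaks at percentile 85.5, and it is also the longest member (110 kb). The density was 6.64 peaks per 100 kb, below that of *Mobp* (8.36) and *Cnp* (8.80). The gene has separate groups of starts. The upstream group, which gives the golli transcripts known from neurons and immune cells as well as OLGs, had 3 annotated starts at chr18:82475146-82475162, and all 3 lay within 12 bp of a peak centre. The downstream group, which gives the classic myelin basic protein, had 7 starts at chr18:82554470-82554580, and none had a peak within 1 kb, the nearest centre being 4566 to 4676 bp away. Of the other 9 peaks, 5 lay in introns, 3 of these beyond the downstream starts, and 4 lay between genes. Accessibility at the *Mbp* promoter in this list was therefore at the upstream starts and was not called at the downstream ones.

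The other myelin genes differed among themselves. *Cnp* (chr11:100574904-100591729), which encodes an enzyme of non-compact myelin, had 5 peaks at percentile 74.7. One centre lay 438 bp inside its only annotated start, and the other 4 lay in neighbours, 2 in *Ttc25* upstream and 2 in *Dnajc7* downstream. *Mobp* (chr9:120149707-120181484), which encodes a protein of compact myelin, had 6 peaks at percentile 81.0, but none in its body of 31.8 kb. Of the 6, 3 lay upstream, of which 2 were inside *Gm5922*, and the 3 downstream were inside *Gm38642*. Counted over the gene body alone its percentile was 11.8. *Mog* (chr17:37010743-37023398), which encodes a glycoprotein of the outer myelin face, had 3 peaks at percentile 57.7. Of these, 2 covered starts of *Zfp57*, a zinc-finger factor of imprinting, and 1 lay between genes, 5.37 kb before *Mog*. *Mag* (chr7:30899176-30914873), which encodes a glycoprotein of the inner myelin face, had 1 peak, in an intron 10.6 kb from its outermost start, at percentile 27.0, or 51.8 when counted over the gene body alone. None of the starts of *Mobp*, *Mog* and *Mag* had a peak within 1 kb.

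By place, 3 of the 33 peaks were at a start of the member itself, 9 inside the member away from its starts, 3 at a start of another protein-coding gene, 10 inside another gene and 8 between genes. In total 13 peaks were thus at a start of another protein-coding gene or inside a non-member gene of any annotated type. The latter include those in *Gm5922* and *Gm38642*, and no other protein-coding gene starts in the *Mobp* window. Any protein-coding start lay within 1 kb of 6 of the 33 peaks, against 32.0% of all DN peaks. Of the 29 annotated starts of the 10 genes, 5 had a peak within 1 kb, 3 of *Mbp* and 1 each of *Pdgfra* and *Cnp*, against 56.2% of the 41249 annotated starts of protein-coding genes. The shares of the other classes over all peaks were not computed. The median GC content of the 33 peaks was 52.4%, against 52.0% over all peaks.

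The CTCF consensus, 12 bases long, was searched on both strands of these peaks. The search was added after the sequences had been read, and a match is a stretch of letters and not a measured site. An exact match was found in 6 of the 33 (18.2%), against 5.25% of all DN peaks. A match with up to 1 mismatch was found in 15 of 33 (45.5%), against 17.9% of all DN peaks. These shares are descriptions of the peaks that prompted the search and were not tested, and peaks of 1 gene share a locus. Since peaks at starts held fewer matches, the peaks away from every protein-coding start were also counted. Among these, 14 of 27 member peaks (51.9%) held a match with up to 1 mismatch, against 21.6% of such peaks in the whole list. For exact matches it was 5 of 27 (18.5%) against 7.09%. In 500-bp windows 2 kb from a peak and free of peaks, the share with up to 1 mismatch was 5.89%. In 11 of the 15 peaks the match lay within 50 bp of the peak centre, close to the share among all DN peaks with such a match (69.5%), as in the *Mag* and *Cspg4* stretches shown above. Matches came from *Mbp* (4 of 10 peaks), *Mobp* (4 of 6), *Cspg4* (3 of 3), *Pdgfra* (2 of 3), *Mag* (1 of 1) and *Sox10* (1 of 2), and none from *Mog* (0 of 3) or *Cnp* (0 of 5). Without the 10 peaks of *Mbp* the share was 47.8% (11 of 23).

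The SOX and E-box words, of the kinds bound by factors of the lineage, were near their shares among all peaks. The SOX words ACAATG or ACAAAG were in 15 of 33 peaks (45.5%, against 41.8% of all peaks and 28.6% of all RefSeq promoters of 300 bases). The E-box words CAGCTG or CATATG, of the kind bound by basic helix-loop-helix factors, were in 13 of 33 (39.4%, against 35.4% of all peaks and 19.8% of promoters). The forkhead word TGTTTAC was in 1 of 33 (3.03%, against 7.22% and 3.65%), and the AP-1 word TGANTCA in 4 of 33 (12.1%, against 12.3% and 7.81%). All were searched on both strands, and a match is a description and not a site. The promoters, of 300 bases, are shorter than the 500-bp peaks, so their shares are not of like length.

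A further 29 genes of the lineage, none of them members, gave a lower median percentile of 29.2. Of these, 23 had a peak within 20 kb, close to the 76.6% of all protein-coding genes, and 9 (31.0%) had one within 1 kb of a start, against 56.9% of all. The 9 were the myelin regulator *Myrf*, the factor gene *Sox8*, the carbonic anhydrase gene *Car2*, the galactolipid enzyme gene *Ugt8a*, the tetraspanin gene *Tspan2*, the orphan receptor gene *Gpr37*, the phosphatase gene *Ptprz1*, and *C1ql1* and *Lhfpl3*. The 6 without a peak were *Aspa* and *Fa2h*, enzymes of acetylaspartate and myelin lipid metabolism, *Bmp4*, *Gpr17*, *Ermn* and *Mal*.

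Genes of the assayed cells gave the other end of the range. All 12 DN marker genes had a peak within 1 kb of a start and a median percentile of 88.9, and their lowest percentile, 68.2, was above that of 7 of the 10 members. The authors had used accessibility scores of 5 of these 12 (*Th*, *Lmx1b*, *Foxa2*, *Foxa1* and *Slc6a3*) to pick or check the cluster, so peaks at those 5 were partly fixed by the choice of nuclei. The remaining 7, which the methods do not name but which may have been used as well, all had a peak at a start too, with percentiles from 68.2 to 97.8 and a median of 88.8. All 10 genes used by neurons in general had one too, at a median percentile of 84.5. Astrocyte genes (2 of 10 with a peak at a start of the basic set, or 3 with the outermost start of *Gfap* counted, median percentile 57.4) and microglia genes (2 of 10, median percentile 44.7) lay nearer to the members (3 of 10, 51.7). The lists differ in more than cell type: the median CpG ratio at starts was 0.38 for the members, 0.52 for the other lineage genes, 0.56 for DN genes, 0.59 for neuronal genes, 0.39 for astrocyte genes and 0.22 for microglia genes. The part of CpG content in the differences between lists was not tested.

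**Figure D4:**
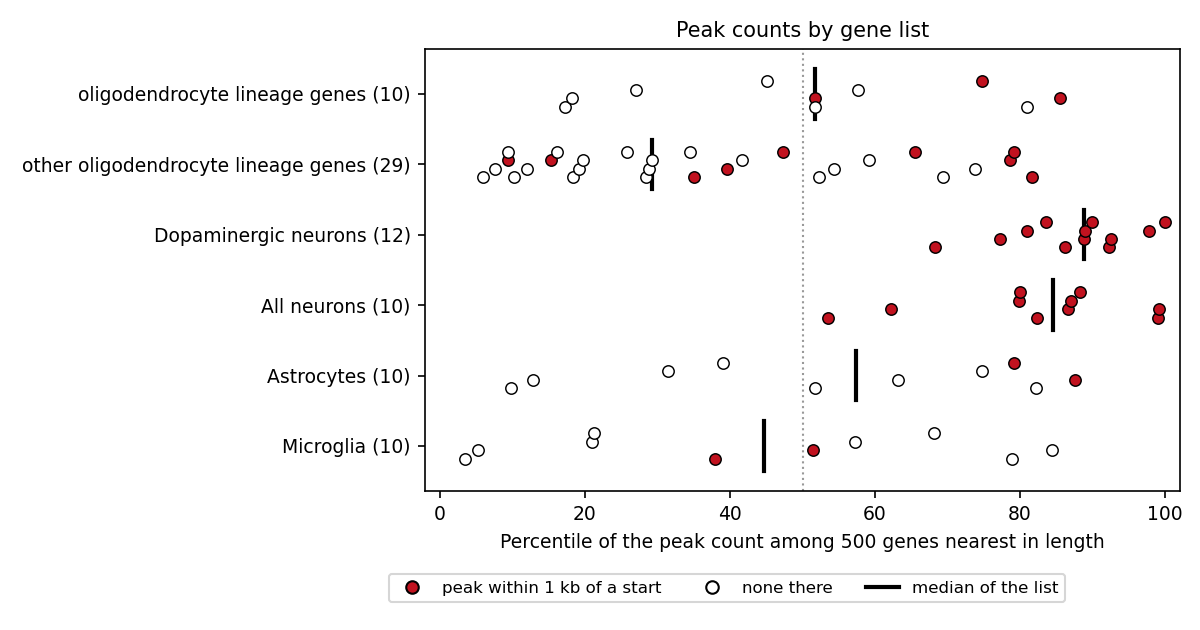
Percentile of the peak count of each gene among the 500 protein-coding genes nearest in length (horizontal axis), by gene list, with filled points for genes with a peak within 1 kb of a start and open points for genes without, and a bar at the median of each list. DN and neuronal genes are all filled and lie above 50, whereas the 10 oligodendrocyte lineage genes run from 17.3 to 85.5 with 3 filled.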

How the data were processed

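The authors made the peaks from snATAC-seq of the VTA, and the submitters' processing notes name Bowtie, ArchR and Cell Ranger and the build mm10. The deposited list holds positions alone, so its unit is other than a count, signal or score. For further analyses the authors kept only peaks found in a minimum share of nuclei. Whether that filter had been applied to the deposited list is not given in the sources used here. The mES cell sample was not used here. Starts were read as counted from 0 and printed from 1. Peaks were assigned by an overlap of at least 1 bp. Starts came from basic GENCODE M21 transcripts, and the percentile is the mid-rank among the 500 protein-coding genes nearest in length. The members and lists were chosen with earlier results of these data known. Named genes were the members, genes holding their peaks or starting within 1 kb of them, and other lineage genes with a peak at a start or with none, and 1 lineage gene of the list was left out and is not reported here. Counting was tested on simulated data. Alternatives varied the flank, overlap, starts and reference genes. Python 3.11.15 was used with numpy 2.4.6, pandas 2.3.3, scipy 1.17.1, pysam 0.24.0 and matplotlib 3.10.9.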

Additional observations from a re-analysis of the deposited data

How the results depend on the processing

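Of 37 values recomputed under an alternative, 25 stayed near the main value and 12 moved. Near meant within 1.5 times of the main count or, for the percentile, within the 95% binomial interval that 500 reference genes give it. That interval describes the rank of 1 gene and not the spread of a median over 10 genes, so it served only as a cut. All 12 came from another window or another set of reference genes. With the gene body alone, 5 members had a peak, 12 peaks were counted, all 12 away from starts of other genes, and the median percentile was 41. With 5 kb on each side there were 17 peaks, all 17 away from other starts, and the median percentile was 36.15. With 50 kb there were 74 peaks, 49 of them away from other starts, and the median percentile was 68.45. Against genes of similar CpG content the median percentile was 63.8, and against genes with a similar number of neighbours it was 58.8. Over 10 alternatives, *Mbp* kept a percentile of 80.1 to 88.6, *Olig1* one of 3.5 to 29.6, *Olig2* one of 3.6 to 30.2, *Cspg4* one of 48.5 to 66.8, *Cnp* one of 53 to 85.9 and *Pdgfra* one of 34.2 to 63.3, whereas *Mobp* ranged from 11.8 to 87.9, *Mog* from 15.5 to 90.4, *Mag* from 19.5 to 70.1 and *Sox10* from 16.7 to 69.9. Leaving out peaks at starts of other genes was chosen after seeing the data and gave 30 peaks and a median percentile of 53.25. A replicate could not be left out, a stricter peak threshold could not be set and no paired analysis was possible because the peak list, the only file used here, pools both libraries and has no scores. No member windows overlapped, so leaving out such members could not change any value. The values under that setting are among the 25 by construction and say nothing about stability. The list carries no depth per peak or per window, which limits what an empty window can show.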

Other observations

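The share of peaks with the CTCF consensus at up to 1 mismatch was also counted in the windows of the other gene lists. It was 32.8% (20 of 61 peaks) for the other oligodendrocyte lineage genes, 26.9% (7 of 26) for microglia genes, 15.8% (6 of 38) for astrocyte genes, 16.03% (21 of 131) for neuronal genes and 13.4% (19 of 142) for DN genes. Among peaks away from every protein-coding start it was 38.6% (17 of 44), 26.7% (4 of 15), 20% (5 of 25), 16.7% (16 of 96) and 14.8% (17 of 115), in the same order. For exact matches alone the other lineage genes had 3 of 61 (4.92%) and the astrocyte genes 5 of 38 (13.2%), so that the order of the lists depended on the number of mismatches allowed. These lists were not tested against each other or against the 10 genes.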
